A study of Homo sapiens with 6 samples.

Results

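The 37 genes of the human mitochondrial genome were taken from a table of 58302 genes, as every gene whose name starts with MT- and whose locus is on the mitochondrial chromosome. They comprise 2 rRNAs, 13 mRNAs and 22 tRNAs, with 28 genes on the heavy strand and 9 on the light strand (MT-ND6 and 8 tRNAs). The locus of all 37 in the table was the same as in GENCODE release 29 on GRCh38. The human mitochondrial genome is a small circle that the single-subunit polymerase POLRMT transcribes from both strands into long RNAs. Most tRNAs lie between the other genes, and their excision releases the rRNAs and mRNAs. The mRNAs encode core subunits of the respiratory chain complexes I, III and IV and of the ATP synthase (complex V), the rRNAs build the mitochondrial ribosome together with nuclear-encoded proteins, and RNA stability in the matrix depends on the LRPPRC-SLIRP complex and on the SUPV3L1-PNPT1 degradosome.

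The RNA came from the cell line MDA-MB-231-DR. It derives from MDA-MB-231, an established triple-negative line of breast cancer cells, is resistant to doxorubicin, and was kept in medium with a low concentration of that drug. There were 3 control libraries and 3 libraries of cells treated with cyperotundone (CYT), the compound the study tested for its effect on chemosensitivity. For these libraries, the sources used here name neither the CYT dose nor the treatment time, and nothing in the labels says that the libraries came from separate cultures, so the p-values measure the spread between these libraries. All cells belong to 1 resistant line, and no parental cells were analysed here.

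The authors separated mRNA from total RNA and removed ribosomal RNA reads before counting, and the methods name Stringtie for the FPKM values and a program called edge for quantifying genes. How strand was used, and how reads with several matches were handled, is not given in the sources used here. Reads of MT-ND6 and the light-strand tRNAs therefore cannot be told apart from antisense reads, and reads shared with nuclear copies of mitochondrial DNA may be split. Mature tRNAs and longer precursors that contain them are counted alike. In bulk RNA, fewer cells with a transcript and less of it per cell cannot be told apart.

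The 3 control libraries held 14050849 to 17770102 gene counts, and the 3 CYT libraries 13056270 to 14106017. CYT replicate 2 stood apart from the other CYT libraries, with a chi-square per gene of 148 against CYT replicate 1 and 141 against CYT replicate 3, where CYT replicates 1 and 3 gave 24.8 against each other. Among the control libraries, replicate 2 was likewise the farthest, with 124 against replicate 1 and 83.7 against replicate 3, where replicates 1 and 3 gave 59.7. Of 5 genes known to be expressed in MDA-MB-231 cells, 3 fell with CYT in the edgeR test, where 12.9% of all genes tested were called as lower, namely VIM by 1.30, AXL by 0.82 and FOSL1 by 2.84 on the log2 scale, while ESR1, PGR and CDH1, known to be low in this line, had at most 16 counts in any library. FOXA1 and GATA3, from the same list of low genes, had 33 to 141 counts. The call for AXL was lost without any 1 of the 6 libraries, with adjusted p from 0.0509 to 0.131, and with upper-quartile scaling (0.0786) and no filter (0.067). Of 9 leukocyte, fibroblast and endothelial markers, CD3E and DCN had 0 counts in all 6 libraries. CD68 was detected at 47 to 378 counts, and COL1A1 had 316, 219 and 192 counts in control and 55, 48 and 35 in CYT libraries and fell by 2.16 on the log2 scale (edgeR adjusted p = 0.00264). VWF had 5, 13 and 9 counts in control and 11, 15 and 32 in CYT libraries (log2 fold change 1.39, edgeR adjusted p = 0.121), PTPRC had 0 in every control library and 7, 2 and 2 in CYT libraries, and PECAM1 had 19, 30 and 35 in control and 15, 14 and 8 in CYT libraries (log2 fold change -0.96, edgeR adjusted p = 0.181). COL1A2 and CDH5 had at most 6 counts in any library. The summed level of the list was 23.3 to 41.4 CPM in control and 9.65 to 21.1 CPM in CYT libraries.

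The sequences that follow belong to the genes on which the results turn, and were read from the GENCODE release 29 transcripts (GRCh38). The cluster of 4 light-strand tRNAs between MT-ND2 and MT-CO1 held most of the tRNA counts. It consists of MT-TA at chrM:5587-5655, MT-TN at chrM:5657-5729, MT-TC at chrM:5761-5826 and MT-TY at chrM:5826-5891, shown in the sense of the tRNA with the anticodon in capitals.
MT-TA: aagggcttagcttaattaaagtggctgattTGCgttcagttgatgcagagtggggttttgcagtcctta
MT-TN: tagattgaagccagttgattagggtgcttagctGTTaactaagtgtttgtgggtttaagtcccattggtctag
MT-TC: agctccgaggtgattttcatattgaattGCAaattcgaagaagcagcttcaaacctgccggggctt
MT-TY: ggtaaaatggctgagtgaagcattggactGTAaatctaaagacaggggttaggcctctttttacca

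MT-TL1 at chrM:3230-3304 directly follows MT-RNR2 (chrM:1671-3229) on the heavy strand and so marks the border between the rRNAs and the downstream genes. It contains the tridecamer TGGCAGAGCCCGG, the known binding site of the termination factor MTERF1, at chrM:3237-3249. A search of both strands found these 13 letters in 1 of the 37 genes (2.70%). They are in capitals below.
MT-TL1: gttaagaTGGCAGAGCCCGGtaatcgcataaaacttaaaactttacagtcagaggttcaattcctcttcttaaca

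MT-ATP8 and MT-ATP6, which encode ATP synthase subunits and share 1 mRNA, overlap by 46 bases at chrM:8527-8572. The start codon of MT-ATP6 and the stop codon of MT-ATP8 are in capitals below. Reads inside this stretch belong to both genes. MT-ND4L and MT-ND4 overlap by 7 bases, MT-TI and MT-TQ by 3 bases on opposite strands, and MT-TC and MT-TY as well as MT-ATP6 and MT-CO3 by 1 base. In 6 of the 13 mRNAs the stop codon is not coded in full and is completed by the poly(A) tail.
MT-ATP8 and MT-ATP6 overlap: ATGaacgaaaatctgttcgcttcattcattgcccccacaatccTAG

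The first comparison was how much of each library the mitochondrial RNA took up. The 37 genes held 2.414, 3.317 and 3.583% of all gene counts in the control libraries and 8.559, 3.455 and 6.668% in the CYT libraries, given here and below in the order of the replicate numbers. CYT replicate 2 lay within the control range, so the groups overlapped. The mean was 3.10% ± 0.613 in control and 6.23% ± 2.58 in CYT libraries (SD, n = 3, two-sided exact permutation test, p = 0.2). With 3 against 3 libraries this test cannot give a p below 0.1. The replicate numbers were taken to pair the libraries, and within each of the 3 same-numbered pairs the CYT library was higher (exact paired permutation test, p = 0.25, the smallest it can give with 3 pairs). The 95% Wilson intervals of these shares were at most 0.015 percentage points to either side and cover counting error only.

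The groups were then compared for each of the 3 RNA classes. The rRNAs took up 0.1482, 0.1516 and 0.2212% of the counts in control and 1.737, 1.559 and 1.737% in CYT libraries. All CYT libraries were above all control libraries and close to each other. Most of the rRNA share was MT-RNR2, at 0.1238, 0.1372 and 0.1671% in control and 1.509, 1.495 and 1.568% in CYT libraries. The mean rRNA share went from 0.174% ± 0.0412 to 1.68% ± 0.103, a 9.66-fold difference (SD, n = 3, exact permutation test, p = 0.1). The mRNAs took up 2.244, 3.157 and 3.327% in control and 6.674, 1.849 and 4.794% in CYT libraries. Here CYT replicate 2 was below every control library and the other 2 CYT libraries were above. The means of 2.91% ± 0.583 and 4.44% ± 2.43 differed 1.53-fold (exact permutation test, n = 3, p = 0.4), and CYT was higher in 2 of 3 pairs. In the rRNAs and the tRNAs it was higher in 3 of 3 pairs. The tRNAs took up 0.02185, 0.008441 and 0.03482% in control and 0.1477, 0.04714 and 0.1369% in CYT libraries. The groups did not overlap, although CYT replicate 2 was again the lowest CYT library, and the means differed 5.09-fold (exact permutation test, n = 3, p = 0.1).

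**Figure D1:**
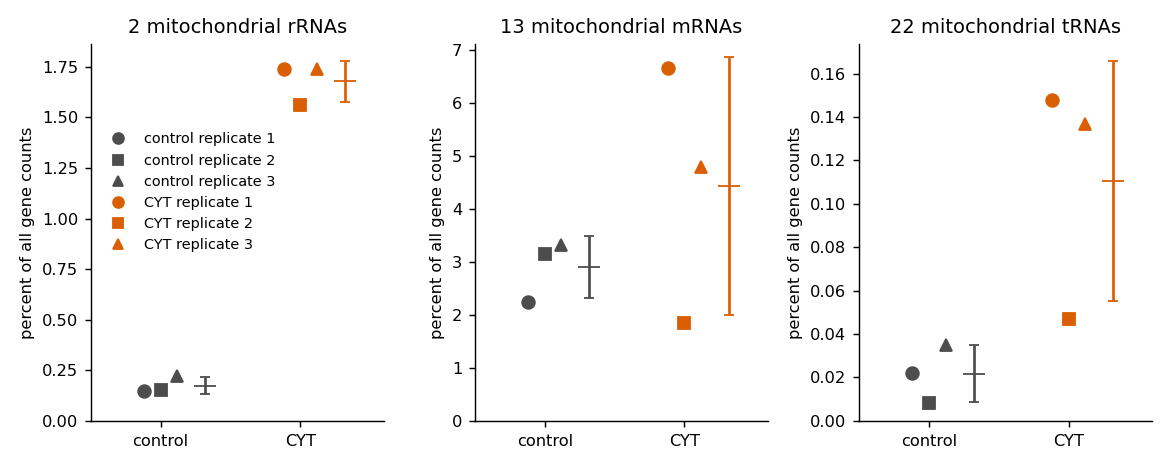
Percent of all gene counts taken up by the mitochondrial rRNAs, mRNAs and tRNAs (vertical axes, each on its own scale) in the 3 control and 3 CYT libraries. Each point is 1 library, and the bar beside it gives the mean ± SD. The rRNA share was 0.174% in control and 1.68% in CYT libraries with little spread, while the mRNA share of CYT replicate 2 (1.849%) lay below all control libraries.

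Within the mitochondrial RNA, the rRNAs made up 5.63% ± 0.916 of the counts in control and 30.5% ± 13 in CYT libraries, and the mRNAs 93.7% ± 1.31 and 67.8% ± 12.7 (SD, n = 3). MT-CO1 kept a similar part of the mitochondrial counts, at 25.7% ± 4.49 in control and 26.1% ± 0.911 in CYT libraries.

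Of the 37 genes, 28 passed edgeR's filter on low counts and were tested among 15572 genes. In the edgeR quasi-likelihood test, 13 of the 28 had an adjusted p under 0.05, all 13 higher with CYT, and 0 were lower. Of all genes tested, 28.6% were called in either direction, 15.7% as higher and 12.9% as lower. By class, 2 of 2 rRNAs, 2 of 13 mRNAs and 9 of 13 tested tRNAs were called. By strand, 7 of 7 tested light-strand genes and 6 of 21 tested heavy-strand genes were called. The median log2 fold change was 2.85 for the rRNAs, 0.68 for the mRNAs and 2.01 for the tested tRNAs, against 0.0064 for all genes tested. All CYT libraries were above all control libraries in TMM-scaled CPM in 10 of the 28 genes, and below in 0, where 23.4% of all genes tested were separated upwards and 22.7% downwards.

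The filter asks for enough counts in any 3 libraries, and MT-TF, MT-TT and MT-TR reached it only with the help of the CYT libraries, in which they were higher. A gene that passes in this way is selected for a difference, so the calls of MT-TF and MT-TT carry less weight. Among the other 25 genes 11 were called. These were 7 of the other 10 tested tRNAs among them, and 4 of the other 18 tested heavy-strand genes.

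The number of calls depended on single libraries. Without CYT replicate 2, 22 of 31 tested genes were called, where 35.6% of all genes tested were. Without control replicate 1, 2 of 31 tested genes were called (18.3% of all genes tested), without control replicate 2, 8 of 31 (23.3%), and without control replicate 3, 6 of 31 (17.6%). Without CYT replicate 1, 6 of 28 were called (20.7%), and without CYT replicate 3, 4 of 28 (19.8%). The share of calls over all genes thus also moved with the library left out. All calls in these fits were higher with CYT. The tRNA calls ranged from 1 of 16 tested without control replicate 1 to 13 of 16 without CYT replicate 2. Of the light-strand genes, only MT-TP stayed called without control replicate 1. In the fits of 31 genes, 5 or 6 tRNAs passed the filter only with the CYT libraries, and without CYT replicate 2 these were MT-TD, MT-TF, MT-TR, MT-TV and MT-TW, with 19 of the other 26 genes called. MT-RNR2 was the 1 mitochondrial gene called in all 11 alternative analyses.

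**Figure D2:**
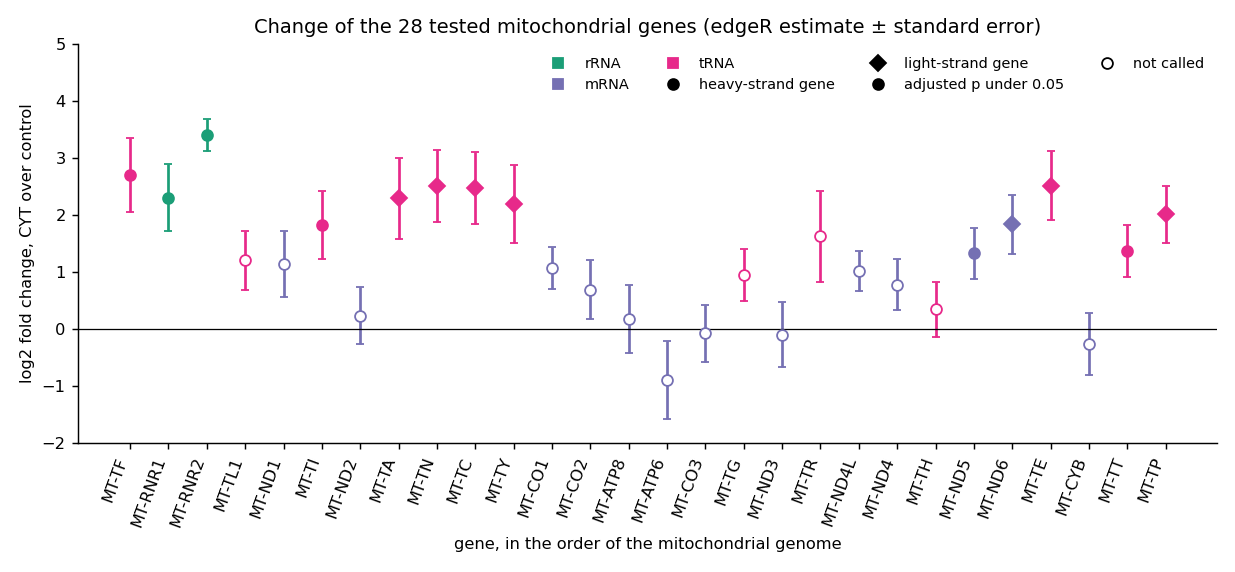
Log2 fold change of CYT over control (vertical axis) for the 28 tested mitochondrial genes, in the order of the genome (horizontal axis). Points are edgeR estimates and bars standard errors, colours give the RNA class, diamonds mark light-strand genes, and filled symbols have an adjusted p under 0.05. The rRNAs, MT-ND5, MT-ND6 and 9 tRNAs are filled, and the mRNAs from MT-ATP8 to MT-ND3 lie near or below 0.

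MT-RNR2, the 16S rRNA of the large mitochondrial ribosomal subunit, showed the largest change of the 28 genes. Its counts were 21489, 24386 and 23474 in control and 212866, 195210 and 210506 in CYT libraries. The lowest CYT library was far above the highest control library, and CYT replicate 2 did not stand apart from the other CYT libraries. The level was 1439 ± 216 CPM in control and 15210 ± 1430 CPM in CYT libraries, with a log2 fold change of 3.40 (SE 0.27, edgeR adjusted p = 0.000302). Leaving out any 1 library gave log2 fold changes of 3.32 to 3.51 and adjusted p of at most 0.00286. As a share of all counts, MT-RNR2 differed 10.7-fold.

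MT-RNR1 (chrM:648-1601), the 12S rRNA of the small subunit, had 4237, 2560 and 7603 counts in control and 32170, 8317 and 22655 in CYT libraries. CYT replicate 2 was the lowest CYT library and only slightly above control replicate 3. The log2 fold change was 2.30 (SE 0.59, edgeR adjusted p = 0.0177), and the call was lost without control replicate 1 (adjusted p = 0.0669) and without CYT replicate 1 (0.055). Leaving out any 1 library gave log2 fold changes of 1.92 to 2.94. The ratio of MT-RNR2 to MT-RNR1 counts was 5.07, 9.53 and 3.09 in control and 6.62, 23.5 and 9.29 in CYT libraries. Replicate 2 had the highest ratio in both groups, the groups overlapped, and the mean log2 ratio was 1.09 higher in CYT libraries (exact permutation test, n = 3, p = 0.3, adjusted over 4 ratios 0.3). Within the same-numbered pairs the ratio was higher in the CYT library in 3 of 3 (exact paired permutation test, p = 0.25, the smallest possible). The difference was 0.564 without CYT replicate 2 and 1.51 without control replicate 2. Both genes lie upstream of MT-TL1 on the heavy strand.

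**Figure D3:**
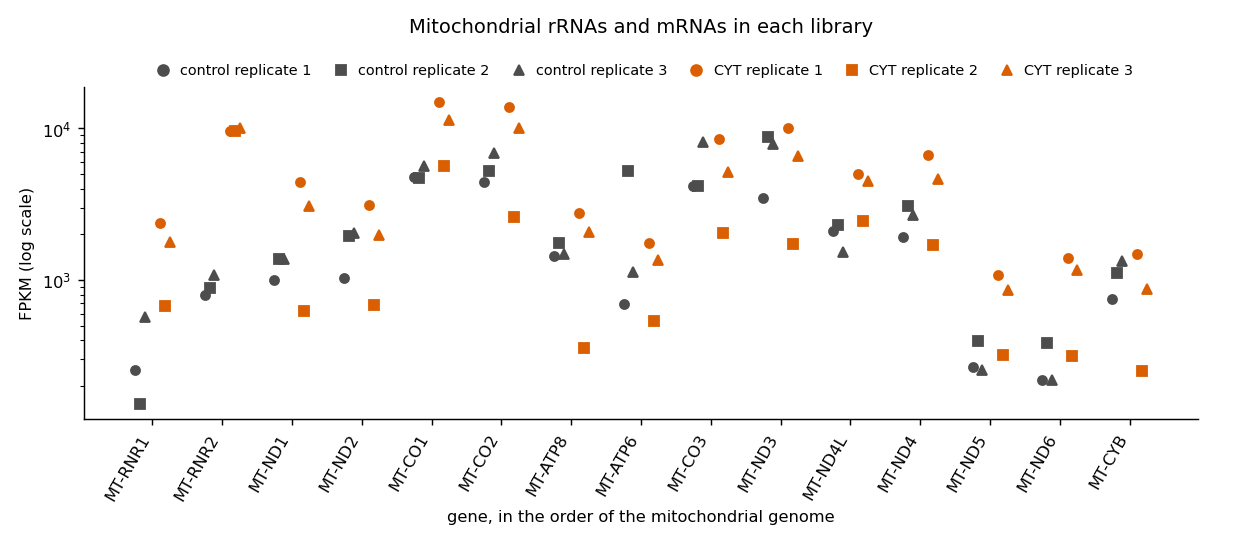
FPKM of the 2 mitochondrial rRNAs and 13 mRNAs on a log scale (vertical axis), in genome order (horizontal axis), with 1 point per library. The CYT libraries of MT-RNR2 coincide near their mean of 9776 FPKM, above all control libraries, while in all 13 mRNAs CYT replicate 2 is the lowest CYT library and in 9 of them lies below all control libraries. CYT replicates 1 and 3 are both above all control libraries in 8 of the 13.

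Levels of different genes were compared per length, in FPKM. In control libraries, MT-ND3 was highest (6722 ± 2830 FPKM), followed by MT-CO2 (5526 ± 1230), MT-CO3 (5515 ± 2280) and MT-CO1 (5060 ± 512). These 4 overlapped with their neighbours in the order, but every control library of MT-CO1 was above every control library of the next gene, MT-ND4 (2553 ± 593). MT-RNR2 was 12th of the 15 rRNAs and mRNAs (915.3 ± 142 FPKM) and separated in every library from MT-RNR1 (324.7 ± 216), which overlapped with MT-ND5 (304.5 ± 77.9), as did MT-ND5 with MT-ND6 (274.9 ± 95.7). In CYT libraries, MT-CO1 was highest (10630 ± 4680 FPKM) and MT-RNR2 was 2nd (9776 ± 249), followed by MT-CO2 (8808 ± 5680) and MT-ND3 (6131 ± 4180). No neighbours in the CYT order were separated in every library. MT-ND5 was the lowest (753.6 ± 394 FPKM).

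The 7 complex I subunits had a median log2 fold change of 1.01, and 2 of the 7 were called, where 28.6% of all genes tested were. MT-ND5 (chrM:12337-14148), the last complex I gene transcribed from the heavy strand, had 8359, 12691 and 6453 counts in control and 27703, 7515 and 20898 in CYT libraries. CYT replicate 2 lay within the control range. The log2 fold change was 1.32 (SE 0.44, edgeR adjusted p = 0.0497), and the adjusted p was 0.0663 with the replicate number as a block. Without any 1 of the libraries other than CYT replicate 2, it ranged from 0.0717 to 0.168, while without CYT replicate 2 the log2 fold change was 1.70 (adjusted p = 0.00217).

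MT-ND6 (chrM:14149-14673), the 1 mRNA of the light strand, which lies next to MT-ND5 on the opposite strand, had 1999, 3596 and 1623 counts in control and 10344, 2144 and 8237 in CYT libraries. CYT replicates 1 and 3 were above all control libraries and CYT replicate 2 within their range. The log2 fold change was 1.83 (SE 0.52, edgeR adjusted p = 0.0277). It was not called without control replicate 1 (adjusted p = 0.0938), control replicate 3 (0.103), CYT replicate 1 (0.0893) or CYT replicate 3 (0.0828).

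The other complex I mRNAs were not called. MT-ND4L had 10807, 12086 and 6419 counts in control and 21027, 9478 and 17916 in CYT libraries. After TMM scaling it was the 1 mRNA in which all CYT libraries were above all control libraries, with a log2 fold change of 1.01 (SE 0.35, edgeR adjusted p = 0.0562). With the replicate block it was called (adjusted p = 0.0485). MT-ND1 had 16453, 23215 and 18414 counts in control and 59581, 7809 and 39221 in CYT libraries, and MT-ND4 had 45721, 75437 and 51623 in control and 129465, 30683 and 85197 in CYT libraries. In both, CYT replicate 2 was below every control library and the other CYT libraries above, with log2 fold changes of 1.14 and 0.78 (edgeR adjusted p = 0.167 and 0.227). MT-ND2 had 18566, 35876 and 29776 counts in control and 45655, 9258 and 27830 in CYT libraries, and MT-ND3 had 20948, 53808 and 38529 in control and 49049, 7816 and 30715 in CYT libraries. Their groups overlapped widely, with log2 fold changes of 0.23 and -0.10 (edgeR adjusted p = 0.768 and 0.912).

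The 3 complex IV subunits, which form the catalytic core of cytochrome c oxidase, were not called. MT-CO1 (chrM:5904-7445), which carries the heme and copper centre, had 128461, 129610 and 122391 counts in control and 323313, 112950 and 236049 in CYT libraries. The control libraries were close to each other, and CYT replicates 1 and 3 were far above them. Its log2 fold change was 1.07 (SE 0.37, edgeR adjusted p = 0.0568), and with the replicate block the adjusted p was 0.0497. MT-CO1 and MT-ND4L were also called with DESeq2 and with upper-quartile scaling. MT-CO2 had 52930, 63783 and 66039 counts in control and 132893, 23396 and 92089 in CYT libraries, with a log2 fold change of 0.68 (edgeR adjusted p = 0.353). MT-CO3 had 57041, 58499 and 89812 counts in control and 93563, 20908 and 54056 in CYT libraries, with a log2 fold change of -0.08 (edgeR adjusted p = 0.92). In both, CYT replicate 2 was lowest of all 6 libraries.

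MT-CYB, the complex III subunit cytochrome b, had 14721, 22465 and 21220 counts in control and 23944, 3758 and 13283 in CYT libraries, and its log2 fold change was -0.27 (edgeR adjusted p = 0.741). The ATP synthase genes were not called either. MT-ATP8 had 5183, 6422 and 4324 counts in control and 8103, 965 and 5737 in CYT libraries, with a log2 fold change of 0.17 (edgeR adjusted p = 0.857). MT-ATP6 had 8218, 63559 and 10875 counts in control and 16830, 4757 and 12340 in CYT libraries. Control replicate 2 was far above the other libraries in this gene, and its log2 fold change of -0.90 (SE 0.69, edgeR adjusted p = 0.357) became 0.36 without control replicate 2 (adjusted p between 0.18 and 0.644 over the fits that leave out 1 library). The ratio of MT-ATP6 to MT-CO3 counts, 2 genes that abut in the genome, was 1.09 in control replicate 2, 0.144 and 0.121 in the other control libraries, and 0.18 to 0.228 in CYT libraries. The mean log2 ratio was 0.34 lower in CYT libraries and, without control replicate 2, 0.673 higher. MT-ATP8, which shares an mRNA with MT-ATP6, was only slightly higher in control replicate 2, with 321.3, 341.9 and 310.9 CPM in the control libraries. Whether the count of MT-ATP6 in control replicate 2 reflects the RNA or the assignment of reads to genes cannot be told apart here. The MT-ATP6 values are therefore uncertain, as is their part in the mRNA share and mRNA ratios of that library.

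Without CYT replicate 2, 7 of the 13 mRNAs were called, all higher, where 18.6% of all genes tested were called as higher. These were MT-ND1 (edgeR adjusted p = 0.00284), MT-CO1 (0.00512), MT-CO2 (0.0168), MT-ND4L (0.00569), MT-ND4 (0.0147), MT-ND5 and MT-ND6 (0.000903). Of the tRNAs, 13 were called in the same fit, with MT-TL1 (0.00497) and MT-TG (0.0385) gained. MT-TV (0.0431) and MT-TW (0.0377) were called too, but passed the filter there only through the CYT libraries in which they were high, as did MT-TF. The median mRNA log2 fold change was then 1.13. It was 0.235 without CYT replicate 1, in a fit with 0 of 13 mRNAs called.

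The tRNAs were also summed by strand. The 8 light-strand tRNAs held 0.0199% ± 0.0129 of all counts in control and 0.106% ± 0.053 in CYT libraries, a 5.35-fold difference without overlap (SD, n = 3, exact permutation test, p = 0.1). The 14 heavy-strand tRNAs held 0.00186% ± 0.000281 and 0.00439% ± 0.00242, and their groups overlapped (exact permutation test, n = 3, p = 0.2). In both sums the CYT library was higher in 3 of 3 same-numbered pairs. The count ratio of light- to heavy-strand tRNAs was 11.6, 4.08 and 15.0 in control and 20.7, 22.9 and 30.2 in CYT libraries. All CYT libraries were above all control libraries in this ratio, which was computed after the values were seen and not tested. The mean log2 difference of 1.44 was 0.876 without control replicate 2. Whether CYT changed the tRNAs of the strands differently was thus not tested.

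The 4 tRNAs of the cluster printed above held 0.019% ± 0.013 of all counts in control and 0.102% ± 0.0509 in CYT libraries, a 5.39-fold difference (SD, n = 3, exact permutation test, p = 0.1). MT-TN, the asparagine tRNA, had 1031, 383 and 1640 counts in control and 6643, 2289 and 6492 in CYT libraries, and MT-TC, the cysteine tRNA, had 1129, 387 and 1573 in control and 6924, 2158 and 6180 in CYT libraries. MT-TA, the alanine tRNA, had 506, 104 and 563 counts in control and 2317, 614 and 2141 in CYT libraries, and MT-TY, the tyrosine tRNA, 657, 177 and 701 in control and 3227, 645 and 2346 in CYT libraries. In all 4, replicate 2 was the lowest library of both groups. CYT libraries of MT-TN, MT-TC and MT-TA were above all control libraries after scaling, whereas in MT-TY CYT replicate 2 was below control replicate 3. The log2 fold changes were 2.50 for MT-TN (SE 0.63, edgeR adjusted p = 0.0166), 2.48 for MT-TC (SE 0.63, 0.0171), 2.29 for MT-TA (SE 0.71, 0.038) and 2.19 for MT-TY (SE 0.69, 0.0389).

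Leaving out any 1 library gave log2 fold changes of 2.06 to 3.16 for MT-TN. The calls for MT-TN and MT-TC were lost without control replicate 1 (edgeR adjusted p = 0.0613 and 0.0588) and without CYT replicate 3 (0.0509 and 0.0506). Those for MT-TA and MT-TY were lost without any 1 library other than CYT replicate 2, with adjusted p of 0.0557 to 0.0981 for MT-TA and 0.0619 to 0.108 for MT-TY. The level per length changed sharply at the start of the cluster. MT-TW, the heavy-strand tryptophan tRNA that precedes MT-TA, was at 1.69, 4.14 and 4.19 FPKM in control libraries, where MT-TA was at 422, 84.8 and 581 FPKM. In CYT libraries MT-TW was at 17.7, 5.63 and 11.0 FPKM and MT-TA at 2380, 682 and 2312 FPKM.

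Outside the cluster, the light-strand MT-TE, the glutamate tRNA next to MT-ND6, had 22, 49 and 34 counts in control and 265, 49 and 184 in CYT libraries, with a log2 fold change of 2.51 (SE 0.60, edgeR adjusted p = 0.0127). The light-strand MT-TP, the proline tRNA, had 145, 102 and 73 counts in control and 483, 140 and 446 in CYT libraries, with a log2 fold change of 2.01 (SE 0.50, edgeR adjusted p = 0.0152). After scaling, all CYT libraries of both genes were above all control libraries. MT-TE was not called without control replicate 1 (adjusted p = 0.0538), nor MT-TP without control replicate 3 (0.0682) or CYT replicate 3 (0.0511). The remaining 2 light-strand tRNAs, MT-TQ and MT-TS1, did not pass the filter.

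Among the heavy-strand tRNAs, 3 of 7 tested were called, and of the 4 that passed the filter by the control libraries alone 1 was called (MT-TI). MT-TF (chrM:577-647), the phenylalanine tRNA directly upstream of MT-RNR1, had 6, 5 and 11 counts in control and 57, 17 and 50 in CYT libraries, without overlap and with a log2 fold change of 2.69 (SE 0.65, edgeR adjusted p = 0.0133). It passed the filter only with the CYT libraries, was called without the filter too (adjusted p = 0.00758), and was not called without control replicate 1 (0.0574). MT-TI, the isoleucine tRNA, had 20, 17 and 14 counts in control and 86, 16 and 50 in CYT libraries (log2 fold change 1.82, edgeR adjusted p = 0.0476), and its groups overlapped. MT-TT, the threonine tRNA, had 12, 20 and 16 counts in control and 34, 29 and 40 in CYT libraries (log2 fold change 1.36, edgeR adjusted p = 0.0481). Both were lost without any 1 library other than CYT replicate 2, with adjusted p of 0.104 to 0.193 for MT-TI and 0.103 to 0.162 for MT-TT. MT-TT, which also passed the filter only with the CYT libraries, was lost too with the replicate block (0.0578) and without the filter (0.117).

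The other 4 tested heavy-strand tRNAs were not called. MT-TL1, the leucine tRNA with the tridecamer, had 153, 147 and 159 counts in control and 520, 102 and 279 in CYT libraries. CYT replicate 2 was below all control libraries, and the log2 fold change was 1.20 (SE 0.52, edgeR adjusted p = 0.11), where that of the adjacent MT-RNR2 was 3.40. The glycine tRNA MT-TG had 37, 61 and 45 counts in control and 123, 44 and 64 in CYT libraries, and the arginine tRNA MT-TR had 19, 3 and 4 in control and 34, 8 and 26 in CYT libraries. The histidine tRNA MT-TH had 16, 14 and 13 counts in control and 20, 11 and 15 in CYT libraries. All 3 overlapped between the groups, with log2 fold changes of 0.94, 1.62 and 0.34 (edgeR adjusted p = 0.147, 0.155 and 0.632). The log2 fold change of MT-TR was 2.87 without control replicate 1 (0.0546) and 1.17 without control replicate 2 (0.334). The 9 tRNAs that did not pass the filter (MT-TV, MT-TQ, MT-TM, MT-TW, MT-TS1, MT-TD, MT-TK, MT-TS2 and MT-TL2) had 0 to 17 counts per library. Of these, MT-TW had 2, 5 and 4 counts in control and 17, 5 and 10 in CYT libraries, MT-TV had 5, 3 and 7 in control and 17, 7 and 16 in CYT libraries, and without the filter neither was called (edgeR adjusted p = 0.199 and 0.198).

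Ratios within a library do not depend on its total. The ratio of rRNA to mRNA counts was 0.0661, 0.048 and 0.0665 in control and 0.26, 0.843 and 0.362 in CYT libraries. All CYT libraries were above all control libraries, with CYT replicate 2 the highest, and the mean log2 ratio was 2.85 higher (exact permutation test, n = 3, p = 0.1, adjusted over 4 ratios 0.133). The ratio of MT-ND6 to the 12 heavy-strand mRNAs was 0.00516, 0.00645 and 0.00348 in control and 0.0111, 0.00896 and 0.013 in CYT libraries, a mean log2 difference of 1.16 without overlap (exact permutation test, n = 3, p = 0.1, adjusted 0.133). In control replicate 2, the mRNA sums of both ratios include the 63559 counts of MT-ATP6 described above as uncertain. The ratio of MT-ND6 to its neighbour MT-ND5 was 0.239, 0.283 and 0.252 in control and 0.373, 0.285 and 0.394 in CYT libraries. The mean log2 difference was 0.43 (exact permutation test, n = 3, p = 0.1, adjusted 0.133), and CYT replicate 2 was barely above control replicate 2. None of the 4 ratios passed after adjustment, which 3 against 3 libraries cannot reach here.

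**Figure D4:**
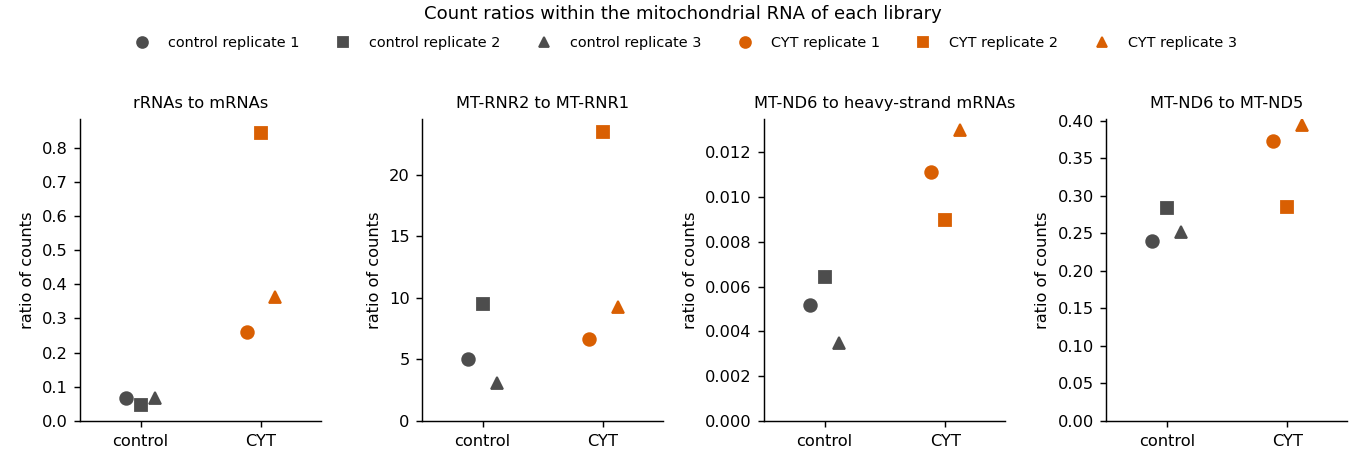
Ratios of raw counts within each library (vertical axes, each on its own scale) in control and CYT libraries, with 1 point per library. The rRNA to mRNA ratio was 0.048 to 0.0665 in control and 0.26 to 0.843 in CYT libraries, and the MT-RNR2 to MT-RNR1 ratio overlapped between the groups.

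Mitochondrial DNA also has nuclear copies whose reads can be confused with it. The table held 407 nuclear genes named after mitochondrial genes, of which 15 had at least 10 counts over all libraries, 8 were tested and 1 was called, where 28.6% of all genes tested were called. The copies with the most counts were MTATP6P1 (6020, 6672 and 6764 in control and 9653, 1751 and 6220 in CYT libraries), MTND2P28 (5647, 6611 and 5680 in control and 8468, 1744 and 5412 in CYT libraries) and MTCO1P12 (2668, 1804 and 1553 in control and 4985, 1614 and 3807 in CYT libraries). They are 98.5, 98.4 and 98.6% identical to MT-ATP6, MT-ND2 and MT-CO1, and their log2 fold changes were 0.10, 0.05 and 1.04 (edgeR adjusted p = 0.906, 0.947 and 0.0958). MTCO1P12 was called with the replicate block (0.0301), with DESeq2 (0.0472) and without CYT replicate 2 (0.00518). As in the mitochondrial mRNAs, CYT replicate 2 was low in MTATP6P1 and MTND2P28. MTATP6P1 was not raised in control replicate 2.

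The 1 copy called in the edgeR test without a block, singled out after its values were seen, was MTRNR2L12, a humanin-like gene derived from the 16S rRNA. It had 15, 8 and 11 counts in control and 140, 192 and 157 in CYT libraries, without overlap and with CYT replicate 2 the highest. It passed the filter only with the help of the CYT libraries, in which it was higher, so its call carries less weight. Its log2 fold change was 4.07 (SE 0.44, edgeR adjusted p = 0.000544), next to 3.40 for MT-RNR2. MTRNR2L12 and MT-RNR2 were 95.1% identical over 1049 aligned positions, and the longest stretch without a difference, of 99 bases at chrM:1901-1999, is printed here with no capitals because it holds no difference. Reads inside it cannot be assigned to either gene.
MT-RNR2 and MTRNR2L12: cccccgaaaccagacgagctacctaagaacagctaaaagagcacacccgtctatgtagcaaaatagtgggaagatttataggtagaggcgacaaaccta

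The nuclear genes that make, process, modify and degrade mitochondrial RNA and DNA were described from 6 lists with 85 genes, all of which passed the filter. In the edgeR test 5 were higher, 18 were lower and 62 were not called. Of all genes tested, 28.6% were called, 15.7% as higher and 12.9% as lower. The median log2 fold change of the 85 genes was -0.30. With the replicate block, 36 of the 85 were called, 11 of them higher, where 39.9% of all genes tested were called.

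Of the 10 genes of mitochondrial transcription, 0 were higher and 4 lower (median log2 fold change -0.45). The counts in this and the following lists are to be read against 15.7% of all genes tested called as higher and 12.9% as lower. POLRMT, the mitochondrial RNA polymerase, had 5054, 3833 and 3153 counts in control and 740, 211 and 605 in CYT libraries. All CYT libraries were below all control libraries, with CYT replicate 2 the lowest, and the log2 fold change was -2.69 (SE 0.47, edgeR adjusted p = 0.00325). MRPL12, a ribosomal protein that also binds POLRMT, fell by 2.38 on the log2 scale (edgeR adjusted p = 0.00296), and TFB1M, which methylates the 12S rRNA, by 2.13 (0.00328). MTERF4, a ribosome assembly factor, fell by 1.09 (edgeR adjusted p = 0.0306).

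The other transcription factors were not called without the replicate block. TFAM, which packages mitochondrial DNA and recruits POLRMT, had 1580, 2856 and 1407 counts in control and 1394, 3747 and 1461 in CYT libraries (log2 fold change 0.45, edgeR adjusted p = 0.442), with replicate 2 the highest in both groups. TFB2M, which melts the promoter, and TEFM, the elongation factor, had log2 fold changes of -0.35 and -0.22 (edgeR adjusted p = 0.516 and 0.654). MTERF1, whose site lies in MT-TL1, had one of 0.77 (edgeR adjusted p = 0.344) and was called with the replicate block (0.0415). Its log2 fold change was 1.53 without control replicate 2 and 0.0989 without CYT replicate 2, where it was not called (0.0701 and 0.902).

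Of the 14 genes of mitochondrial DNA replication and the nucleoid, 2 were higher and 5 lower. The mitochondrial topoisomerase TOP1MT fell by 2.47 on the log2 scale (edgeR adjusted p = 0.00909), the nucleoid ATPase ATAD3B by 2.27 (0.00894) and the helicase-nuclease DNA2 by 1.55 (0.0245). The mitochondrial single-strand binding protein SSBP1 fell by 1.16 (0.0148) and the ligase LIG3 by 1.25 (0.0147). The helicase TWNK had a log2 fold change of 1.11 (edgeR adjusted p = 0.024) and the exonuclease MGME1 one of 0.94 (0.0414). Of the 14 RNA processing genes, which include the RNase P and RNase Z proteins that cut out tRNAs, 0 were called (4 with the replicate block).

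Among the 11 genes of RNA stability and decay, 1 was higher and 1 lower. The degradosome helicase SUPV3L1 had 850, 1087 and 809 counts in control and 1518, 2161 and 1316 in CYT libraries, without overlap after scaling (log2 fold change 1.11, SE 0.29, edgeR adjusted p = 0.0184). Its partner PNPT1 had a log2 fold change of -0.19 (edgeR adjusted p = 0.755), which was -0.76 without CYT replicate 2 (0.0414). The mitochondrial poly(A) polymerase MTPAP had 414, 800 and 327 counts in control and 145, 281 and 133 in CYT libraries (log2 fold change -1.17, edgeR adjusted p = 0.0495). LRPPRC, which keeps mitochondrial mRNAs stable, had 1712, 3316 and 1529 counts in control and 2124, 5854 and 1923 in CYT libraries (log2 fold change 0.87, edgeR adjusted p = 0.168). Replicate 2 was the highest library of both groups in LRPPRC, and with the replicate block it was called (adjusted p = 0.0499). Without CYT replicate 2, its log2 fold change was 0.198 (edgeR adjusted p = 0.63). Its partner SLIRP had a log2 fold change of 0.36 (adjusted p = 0.458).

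Of the 20 genes of rRNA modification and ribosome assembly, 1 was higher and 5 lower. MRM2, which methylates the 16S rRNA, had a log2 fold change of 1.52 (SE 0.31, edgeR adjusted p = 0.00629), and the assembly GTPase MTG1 fell by 1.93 (0.00328). The 12S rRNA methyltransferase NSUN4 fell by 1.38 (edgeR adjusted p = 0.0281), TRMT61B by 1.34 (0.0187), METTL17 by 1.28 (0.0105) and the helicase DHX30 by 1.01 (0.0433). This list also holds DDX50, which is better known as a nucleolar helicase and was not called. Of the 16 genes of tRNA modification, 1 was higher and 3 lower. NSUN3, which methylates the mitochondrial methionine tRNA, had a log2 fold change of 1.94 (edgeR adjusted p = 0.00577). CDK5RAP1 fell by 1.38 (0.00653), the queuosine enzyme subunit QTRT2 by 1.54 (0.046) and the isopentenyl transferase TRIT1 by 1.29 (0.0304). The log2 fold change of QTRT2 was -2.42 without CYT replicate 1 and -1.18 without CYT replicate 3.

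**Figure D5:**
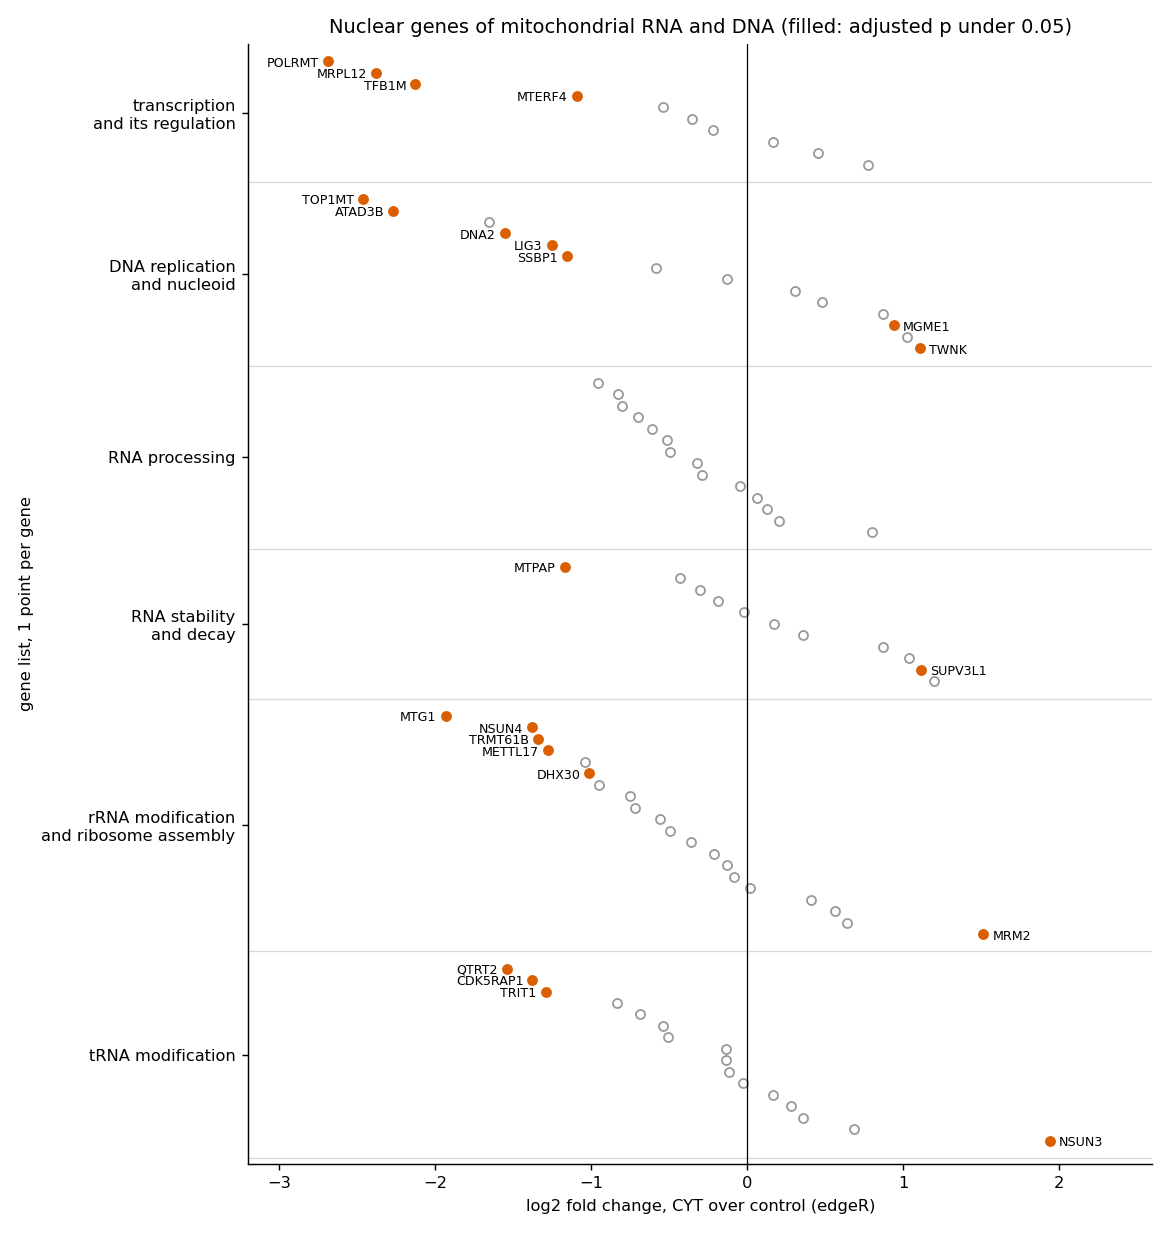
Log2 fold change of CYT over control (horizontal axis) for 85 nuclear genes of mitochondrial RNA and DNA in 6 lists (vertical axis), with 1 point per gene. Filled and named points have an adjusted p under 0.05 in the edgeR test, 5 on the right and 18 on the left, and POLRMT is the lowest at -2.69.

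Of these 23 calls, 10 held in all 11 alternatives, namely those of POLRMT, MRPL12, TFB1M, TOP1MT, ATAD3B, MTG1, MRM2, METTL17, NSUN3 and CDK5RAP1. Without control replicate 1, the calls for DHX30, LIG3, MGME1, MTPAP, NSUN4, QTRT2, SUPV3L1, TRMT61B and TWNK were lost (edgeR adjusted p from 0.0536 to 0.152). Without control replicate 2, those for DHX30, DNA2, MGME1, MTERF4, MTPAP, QTRT2, SUPV3L1 and TRIT1 were lost (0.0501 to 0.141), and without control replicate 3 those of DNA2, DHX30, MGME1, MTERF4, MTPAP, NSUN4, QTRT2, SSBP1, SUPV3L1, TRIT1 and TWNK (0.0553 to 0.138). Without CYT replicate 1, those for DHX30, DNA2, MGME1, MTERF4, MTPAP, NSUN4, SSBP1, TRIT1, TRMT61B and TWNK were lost (0.0516 to 0.151). Without CYT replicate 2, the call for QTRT2 was lost (0.0731), and without CYT replicate 3 those for DNA2, LIG3, MGME1, MTERF4, MTPAP, NSUN4, QTRT2, SSBP1, TRIT1, TRMT61B and TWNK (0.0503 to 0.15). Upper-quartile scaling lost DHX30, MTERF4, MTPAP, QTRT2 and TRIT1 (0.0516 to 0.0822), and the fit without a filter lost MGME1 (0.0973).

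Because the library was made from separated mRNA and rRNA reads were removed, RNAs that carry no poly(A) tail were read beside the mitochondrial rRNAs and tRNAs. Of 25 nuclear RNAs of this kind, 4 passed the filter. Of these, 1 was called as higher and 1 as lower, where 15.7% of all genes tested were called as higher and 12.9% as lower. RN7SK, the 7SK RNA that holds back the elongation factor P-TEFb, had 68, 16 and 42 counts in control and 155, 182 and 182 in CYT libraries, without overlap (log2 fold change 2.25, edgeR adjusted p = 0.0118). RPPH1, the RNA of nuclear RNase P, had 26, 38 and 74 counts in control and 8, 0 and 2 in CYT libraries (log2 fold change -3.57, edgeR adjusted p = 0.0165, not called without control replicate 3, at 0.0766, or CYT replicate 3, at 0.066). Its log2 fold change was -2.89 without control replicate 3 and -5.15 without CYT replicate 1. RPPH1 passed the filter only through the control libraries, in which it was higher, so its call carries less weight. RN7SL1 and RN7SL2, the RNAs of the signal recognition particle, had log2 fold changes of -1.62 and -1.49 and were not called (edgeR adjusted p = 0.153 for both). The summed level of the 25 RNAs was 8.55 to 42.9 CPM in control and 19.3 to 25.6 CPM in CYT libraries. Of the nuclear rRNA genes, 2 of 6 listed were in the table, both with 0 counts in every library. The part of rRNA removal and of mRNA separation in the MT-RNR1, MT-RNR2 and tRNA values was not tested.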

How the data were processed

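Libraries were made by the authors from mRNA that had been separated from total RNA, and were sequenced on the Illumina NovaSeq. Reads of low quality, adapters and rRNA were discarded and the rest aligned with Hisat2. The submitters' processing notes name FastQC 0.12.1 and hg38. The authors deposited the raw count of each gene in each library, without normalization, and an FPKM value per gene, for which the methods name Stringtie. For quantifying genes they name a program called edge, without a version. For all 37 mitochondrial genes, the length implied by count and FPKM equalled the gene's length in GENCODE release 29 within 1 base.

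Raw counts were tested with edgeR 4.0.16 in R 4.3.3 (TMM normalization, filterByExpr with a minimum count of 10, quasi-likelihood test between CYT and control libraries, Benjamini-Hochberg adjustment over 15572 genes). Genes were called where the adjusted p was below 0.05. Genes varied between replicates by a biological coefficient of variation of 37.5%. The F statistic of each gene gave the standard error. CPM values were scaled by TMM. Shares are percent of all gene counts, with 95% Wilson intervals, and shares and log2 ratios were compared with two-sided exact permutation tests (scipy 1.17.1). Identities to nuclear copies came from alignments with Biopython 1.88. The fits were tested on simulated data. No library was a copy of another, since the chi-square per gene was at least 24.8 between replicates and at least 168 between control and CYT libraries.

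The mitochondrial genes and the gene lists were chosen with earlier results of these data known. All 37 genes were accounted for, with counts per library for the 2 rRNAs, the 13 mRNAs and the tRNAs that passed the filter, and the range for the rest. Of the nuclear genes, POLRMT, TFAM, TFB2M, TEFM, LRPPRC, SLIRP, SUPV3L1 and PNPT1 and the 3 called genes with the largest change in each list were named by rule, and the other called genes, MTERF1 and MTRNR2L12 after their values were seen.

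The deviations of same-numbered libraries from their group means were correlated across genes (0.188, 0.458 and 0.124 for replicates 1, 2 and 3). Since each was over 0.1, the numbers were taken to pair the libraries. The pairing rests on the replicate numbers of the labels and on this check. Control replicate 1 with CYT replicate 3 (0.303) and control replicate 3 with CYT replicate 1 (0.201) also correlated. Both values were above those of the same-numbered replicates 1 and 3, so the check cannot settle the pairing. Alternatives were DESeq2 1.42.0, upper-quartile normalization, scaling from genes outside the mitochondrial chromosome, no filter, a replicate block and leaving out each library in turn. Exact paired tests of shares and ratios, and leaving out libraries for the 2 ratios that were not planned, were added after the data were seen.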

Additional observations from a re-analysis of the deposited data

How the results depend on the processing

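With upper-quartile scaling all genes shifted together, to a median log2 fold change of 0.155. Of the mitochondrial genes, 15 of 28 tested were called with DESeq2 (33.9% of all genes tested) and with upper-quartile scaling (28.9%), 13 of 28 with scaling from nuclear genes (28.6%) and 12 of 37 without the filter (16.0%), and all 13 calls of the edgeR test were kept in the first 3 of these. With the replicate block 13 of 28 were called, 11 of them the same genes, and the 85 nuclear genes of mitochondrial RNA went from 23 to 36 calls, while the called share of all genes tested went from 28.6 to 39.9%. Leaving out 1 library gave 2 to 22 calls among the mitochondrial genes (2 to 19 without those that passed the filter only with the CYT libraries) and 12 to 33 among the nuclear genes, while 17.6 to 35.6% of all genes tested were called. The shares by RNA class and the 4 ratios that were tested kept their direction in the alternatives run for them. In exact tests of the same-numbered pairs, added after the data were seen, CYT was higher in 3 of 3 pairs (p = 0.25, the smallest possible), except in the mRNA share (2 of 3, p = 0.5). Of the 2 ratios made after the values were seen, the log2 difference of MT-ATP6 to MT-CO3 went from -0.34 to 0.673 without control replicate 2 (-0.91 to 0.673 over all 6 libraries left out), and that of light- to heavy-strand tRNAs ranged from 0.876 to 1.81.

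Of the genes named, those whose estimate changed sign in some fits had not been called. Their log2 fold changes over the fits that leave out 1 library ran from -0.276 (CYT replicate 1 left out) to 0.637 for MT-ND2, from -0.311 (CYT replicate 1) to 0.656 for MT-ATP8, from -1.34 to 0.361 (control replicate 2) for MT-ATP6, from -0.6 to 0.313 (CYT replicate 2) for MT-CO3, from -0.628 to 0.339 (CYT replicate 2) for MT-ND3, from -0.876 to 0.172 (CYT replicate 2) for MT-CYB, from -0.138 (CYT replicate 2) to 0.703 for TFAM, from -0.76 to 0.035 (CYT replicate 1) for PNPT1, from -0.391 (CYT replicate 1) to 0.532 for MTATP6P1 and from -0.421 (CYT replicate 1) to 0.468 for MTND2P28. MT-CO3 (0.0615) and MT-ND3 (0.0319) also changed sign with upper-quartile scaling, both by less than the shift of all genes, MT-ATP8 (-0.23), MTATP6P1 (-0.193) and MTND2P28 (-0.203) with the replicate block, and MTND2P28 (-0.00295) without the filter. The cause was not tested. With 3 libraries a group, exact tests of shares and ratios could not go below 0.1. The estimates for tRNAs with few counts are limited by those low counts.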

Other observations

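Genes that the table types as snRNA, the spliceosomal and related small nuclear RNAs and their copies, had 172, 157 and 124 counts in all in control and 511, 444 and 362 in CYT libraries, out of 1909 genes of this type. This was 9.91, 8.84 and 8.83 CPM, here relative to all counts without TMM scaling, in control and 36.2, 34.0 and 27.0 in CYT libraries, so that all CYT libraries were above all control libraries and CYT replicate 2 lay between the other CYT libraries. Genes typed as snoRNA, which guide modification of nuclear rRNA, had 36.9, 49.0 and 44.2 CPM in control and 44.2, 48.3 and 37.5 in CYT libraries, and the groups overlapped, as they did for scaRNA and misc_RNA. The 8 genes typed as ribozyme, which include RPPH1, went the other way, with 2.48, 2.14 and 5.76 CPM in control and 0.709, 0.23 and 0.298 in CYT libraries, so that all CYT libraries were below all control libraries. The 58 genes typed as rRNA, which do not include the mitochondrial ones, had 3, 1 and 2 counts in control and 0 in each CYT library. These sums were made after the values were seen and were not tested.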
